A study of Mus musculus with 12 samples.

Results

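The circadian clock of liver cells was examined through 10 genes: Arntl, Npas2, Cry1, Per1, Per2, Per3, Nr1d1, Nr1d2, Dbp and Bhlhe41. They were chosen by name, and a gene was measured where a probe set on the array was annotated to its symbol alone. That held for 9 of the 10, each with 1 probe set, among 19938 genes measured in all. Npas2, a close relative of Clock that also pairs with the Arntl protein, was not analysed here. Liver RNA came from male C57BL/6N mice killed at 110 days of life after 6 hours without food. KI_MR and KI_CD mice were homozygous for Lmna G609G, a knock-in allele of the lamin A gene used to model Hutchinson-Gilford progeria in mice. WT_MR and WT_CD mice were wild type, and all mice descended from crosses of heterozygous parents. From 7 weeks of age the MR groups ate a diet restricted in methionine and the CD groups a control diet, each given as a mix of solid and crushed pellets. Each of the 4 groups had 3 arrays (Affymetrix Mouse Gene 1.0 ST). Mice were housed apart by genotype, so cage and genotype cannot be told apart. The sources used here do not give the time of day at which the livers were taken. Nothing in the labels says that the arrays came from separate animals, and the spread behind the p-values may therefore be technical.

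The molecular clock is a feedback loop. The Arntl protein (BMAL1) pairs with Clock or Npas2, binds E-box elements in DNA and switches on the Per, Cry, Nr1d, Dbp and Bhlhe41 genes. Per and Cry proteins then block that pair, Nr1d1 and Nr1d2 (REV-ERB alpha and beta) bind ROR elements and repress Arntl, and Bhlhe41 (DEC2) competes at E-boxes. Dbp activates genes with D-box elements, among them the Per genes. In the liver this loop sets daily rhythms of many metabolic genes, Arntl peaks at about the opposite time of day from Dbp and the Nr1d genes, and Cry1 peaks later than the Per genes. Livers taken at different clock times can therefore differ, with Arntl high where Dbp and Per2 are low.

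The elements of this loop were looked for in the promoters of the clock genes, because they link the genes whose levels are given below. RefSeq entries (GRCm38.p6) gave 11 windows of 250 bases before to 50 after a start, for 9 of the 10 genes, and the Per2 promoter was not analysed here. Searched on both strands, the E-box CACGTG lay in 3 of the 11 windows, against 7.15% of 32851 windows of all genes. The D-box TTANNTAA lay in 1, against 6.0%, and the ROR element core (TAGGTCA or TGGGTCA) in 1, against 6.45%. The stretches read 5′ to 3′ on the gene's strand, with the match in capitals, and no match overlapped another. A match is a run of letters in these windows and was not tested as a binding site.
Bhlhe41, E-box, chr6:145865528-145865613, minus strand, 153 bases before the start: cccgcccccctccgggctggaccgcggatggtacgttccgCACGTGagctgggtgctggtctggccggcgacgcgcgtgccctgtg
Cry1, E-box, chr10:85185069-85185154, minus strand, 60 bases before the start: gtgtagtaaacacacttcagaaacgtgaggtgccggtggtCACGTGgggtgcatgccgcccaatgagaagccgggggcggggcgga
Per1, E-box, chr11:69098743-69098828, plus strand, 166 bases before the start: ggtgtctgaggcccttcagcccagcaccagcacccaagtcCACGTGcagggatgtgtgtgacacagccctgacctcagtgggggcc
Per3, D-box, chr4:151044776-151044910, minus strand, 2 matches 205 and 158 bases before the start: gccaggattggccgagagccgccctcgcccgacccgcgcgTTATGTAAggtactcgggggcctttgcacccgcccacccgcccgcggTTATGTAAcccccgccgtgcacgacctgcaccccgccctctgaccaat
Arntl, ROR element core, chr7:113207531-113207557, plus strand, from base 31 of the transcript: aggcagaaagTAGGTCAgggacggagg

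Levels are deposited array intensities, in arbitrary units on a linear scale, and changes are log2 fold changes from 1 limma fit over all 19938 genes and 12 arrays. The median intensity lay between 82 and 90 on the 12 arrays, and the number of arrays limits the precision. All 6 hepatocyte markers were above the lower quartile of gene levels, with a summed intensity of 65575 to 78001 per array. Among markers of other cells, the sum of the erythroid genes Alas2 and Slc4a1 was 285 to 742 in KI_MR, 524 to 697 in KI_CD, 563 to 732 in WT_MR and 1160 to 1385 in WT_CD. The sum of 7 Kupffer cell and macrophage markers was 5682 to 6571 in KI_MR, 5138 to 6561 in KI_CD, 5236 to 9506 in WT_MR and 6791 to 8244 in WT_CD. It was highest on WT_MR replicate 3, where Vsig4 stood at 3057 against 1963 and 1553 on the other WT_MR arrays. Adgre1 stood at 830 there, against 398 and 327. The part of these cells in the results was not tested. The probe sets do not tell the G609G allele from the wild-type allele, so the genotype labels were not checked. The arrays WT_MR replicate 3 and KI_CD replicate 1 stood apart. The 9 clock genes of WT_MR replicate 3 differed from the mean of the other 2 arrays of the group by 0.729 on average (log2, absolute values), against 0.202 for all genes. KI_CD replicate 1 had the lowest mean correlation with its own group over all genes, at 0.986 against 0.989 to 0.994 for the others, and its clock genes differed by 0.432 on average, against 0.194 for all genes. WT_MR replicate 1 differed by 0.598, against 0.121 for all genes, from a mean that includes replicate 3. Of the clock gene changes printed below, those that moved by over 1.5 times without WT_MR replicate 3 or KI_CD replicate 1 are given both ways.

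Bhlhe41, a repressor of E-box genes, was the clock gene that changed with diet, and it fell under methionine restriction in both genotypes. Its intensity was 37, 45 and 33 in KI_MR, against 62, 82 and 105 in KI_CD. In wild-type livers it was 42, 39 and 35 in WT_MR, against 100, 96 and 90 in WT_CD. Neither pair of groups overlapped, and all 6 arrays of restricted mice lay below all 6 arrays of control mice. The mean log2 level was 5.25 ± 0.23 in KI_MR, 6.34 ± 0.38 in KI_CD, 5.27 ± 0.13 in WT_MR and 6.57 ± 0.08 in WT_CD (SD, n = 3 each). Both MR means lie below the lower quartile of gene levels on the arrays (5.49 to 5.67), which was taken as a floor. With MR arrays below that floor set to it, Bhlhe41 was at least 1.78-fold lower in KI_MR than in KI_CD. In the wild type it was at least 1.99-fold lower in WT_MR than in WT_CD. As these are whole livers, fewer cells with a transcript and less of it per cell cannot be told apart.

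The measured log2 change of Bhlhe41 was -1.30 (SE 0.17) in WT_MR against WT_CD, with an adjusted p of 0.00935 by limma and Benjamini-Hochberg adjustment over all genes. It was 1 of 9 measured clock genes past the threshold of 0.05 in that comparison, in which 0.326% of all genes passed. In KI_MR against KI_CD the change was -1.09 (SE 0.17, limma adjusted p = 0.0360), again 1 of 9 clock genes, with 0.176% of all genes past the threshold. The wild-type call was lost without WT_CD replicate 1 (-1.27, limma adjusted p = 0.0600). The knock-in call was less firm. It was lost without KI_MR replicate 1 (limma adjusted p = 0.171) or 3 (0.176), without KI_CD replicate 2 (0.113) or 3 (0.0951), and without any 1 of the 6 WT arrays (0.0538 to 0.0738), with changes of -1.09 to -0.91. Between the genotypes, both MR groups lay below the floor, so no difference in Bhlhe41 is given for KI_MR against WT_MR. In KI_CD against WT_CD it was -0.23 (95% interval -0.60 to 0.14, limma adjusted p = 0.598), and -0.04 without KI_CD replicate 1.

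**Figure D1:**
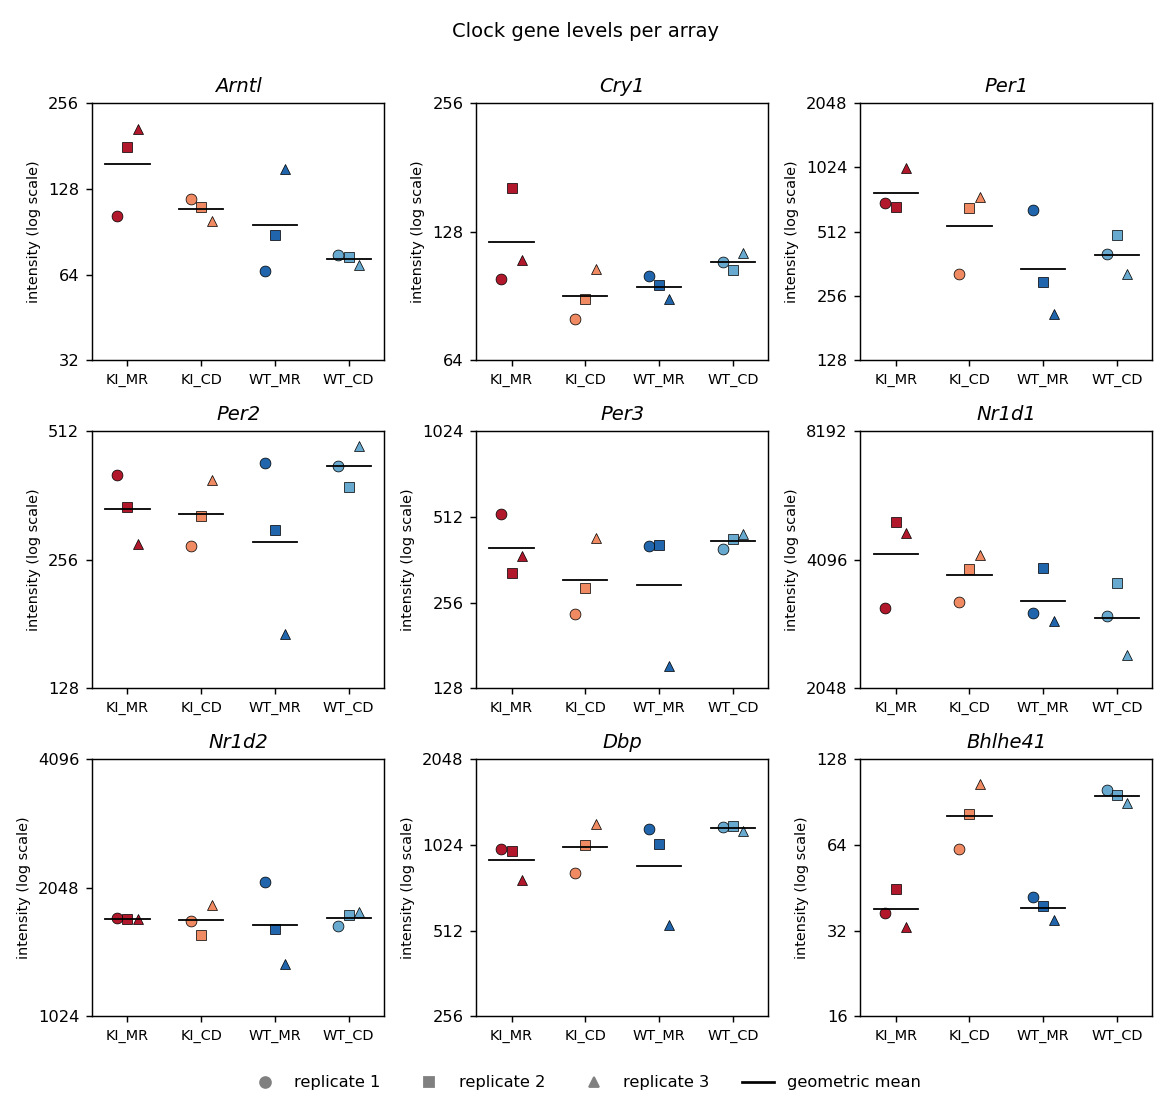
Intensity of the 9 measured clock genes on each of 12 arrays (log axis, array units; axis limits differ between genes), by group, with the symbol for the replicate number and a bar at the geometric mean of 3 arrays. Bhlhe41 lies at 33 to 45 on the 6 MR arrays and at 62 to 105 on the 6 CD arrays, and WT_MR replicate 3 (triangle) has the lowest Per1, Per2, Per3, Nr1d2 and Dbp.

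Arntl, the activator without which the loop stops, was higher in knock-in than in wild-type livers by its group means, but no comparison of it passed the test. Its intensity was 103, 180 and 208 in KI_MR and 118, 111 and 99 in KI_CD. In the wild type it was 66, 88 and 150 in WT_MR and 75, 74 and 69 in WT_CD. The tightest group was WT_CD, and both MR groups spread widely, with WT_MR replicate 3 well above its group. The mean log2 level was 7.29 ± 0.54 in KI_MR, 6.77 ± 0.13 in KI_CD, 6.58 ± 0.60 in WT_MR and 6.18 ± 0.06 in WT_CD (SD, n = 3 each). Neighbours in this order did not differ beyond their spread: KI_MR exceeded KI_CD by 0.52 and WT_MR exceeded WT_CD by 0.40, both within the SD of the MR group, and the values of KI_CD and WT_MR overlapped.

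In KI_CD against WT_CD all 3 Arntl values of the knock-in lay above all 3 of the wild type, with a log2 change of 0.59 (SE 0.29, 95% interval -0.05 to 1.22, limma adjusted p = 0.469). In that comparison 0 of the 9 clock genes passed the threshold, against 0.0802% of all genes, and 2234 of all genes had an unadjusted p under 0.05 but 0 of the clock genes. Arntl was the 1 clock gene whose groups did not overlap, which 19% of all genes did. In KI_MR against WT_MR the change of Arntl was 0.72 (SE 0.29, 95% interval 0.08 to 1.35, limma adjusted p = 0.291). There too 0 of 9 clock genes passed, against 0.471% of all genes, and 2 (Arntl and Per1) had an unadjusted p under 0.05, as 2818 of all genes did. Without WT_MR replicate 3 the Arntl change was 1.04 (limma adjusted p = 0.0693), and without WT_MR replicate 1 it was 0.45 (0.578). With array weights it was 1.13 and passed (limma adjusted p = 0.00461). Those weights did not converge and put 16.7 on WT_MR replicate 1, the array with the lowest Arntl. Under the alternatives up to 4612 of all genes passed in this comparison, against 94 as reported, so the weighted call is not particular to Arntl. For diet the changes were 0.52 (SE 0.29) in KI_MR against KI_CD and 0.40 (SE 0.29) in WT_MR against WT_CD. The wild-type value was 0.07 without WT_MR replicate 3.

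Clock, the partner of Arntl, ran close to it (r = 0.89 over the 12 arrays, a description). Its intensity was 474, 576 and 678 in KI_MR, 487, 603 and 495 in KI_CD, 373, 388 and 646 in WT_MR and 333, 391 and 426 in WT_CD. The KI_CD and WT_CD values did not overlap, with a log2 change of 0.46 (SE 0.20, limma adjusted p = 0.430). Clock and Arntl were both highest in KI_MR replicate 3, and both were high in WT_MR replicate 3.

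Cry1, a repressor that blocks the Arntl pair and is itself held down by Nr1d1, showed opposite signs with diet in the 2 genotypes, and none of its changes passed. Its intensity was 99, 162 and 110 in KI_MR and 80, 89 and 105 in KI_CD, against 101, 96 and 89 in WT_MR and 109, 104 and 114 in WT_CD. The high mean in KI_MR came from replicate 2, while the WT_MR values all lay below the WT_CD values. The log2 change was 0.41 (SE 0.16, unadjusted p = 0.0252, limma adjusted p = 0.521) in KI_MR against KI_CD, and 0.20 without KI_MR replicate 2. In WT_MR against WT_CD it was -0.19 (SE 0.16, limma adjusted p = 0.914). Cry1 and Bhlhe41 were the 2 of 9 clock genes that did not overlap there, a pattern that 11.5% of all genes showed. In KI_MR against KI_CD only Bhlhe41 among the 9 did not overlap, against 10.7% of all genes.

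The 3 Per genes, whose proteins close the loop, were more scattered than nearly all other genes, and no comparison of them passed. The SD within groups was 0.57 for Per1, 0.50 for Per3 and 0.39 for Per2 (log2), against a median of 0.13 over all genes. Per1, which also answers to glucocorticoids, had an intensity of 697, 668 and 1014 in KI_MR and 325, 662 and 744 in KI_CD. In the wild type it had 644, 297 and 212 in WT_MR and 401, 495 and 323 in WT_CD. Each KI_MR value lay above each WT_MR value, with a log2 change of 1.18 (SE 0.40, unadjusted p = 0.0126, limma adjusted p = 0.211). It was the 1 clock gene that did not overlap in KI_MR against WT_MR, where 16.3% of all genes did not. The change was 0.83 without WT_MR replicate 3, and with the array weights it was 0.30. Without KI_CD replicate 1 the change of Per1 went from 0.44 to 0.81 in KI_CD against WT_CD. In KI_MR against KI_CD it went from 0.52 to 0.15. Without WT_MR replicate 3 it went from -0.22 to 0.13 in WT_MR against WT_CD.

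Per2 and Per3 differed from Per1 in the group with the highest mean. Per2 had an intensity of 404, 341 and 279 in KI_MR, 276, 325 and 393 in KI_CD, 431, 300 and 172 in WT_MR and 425, 378 and 472 in WT_CD. Per3 had 525, 325 and 372 in KI_MR, 233, 288 and 432 in KI_CD, 405, 409 and 154 in WT_MR and 395, 427 and 447 in WT_CD. For both genes WT_CD had the highest mean. WT_MR replicate 3 was the lowest array for both, as it was for Per1. The log2 change in WT_MR against WT_CD was -0.59 for Per2 (SE 0.27, limma adjusted p = 0.625) and -0.52 for Per3 (SE 0.35, limma adjusted p = 0.835). Without WT_MR replicate 3 these were -0.24 and -0.05. In KI_CD against WT_CD they were -0.37 for Per2 and -0.46 for Per3, and in KI_MR against KI_CD 0.04 and 0.38. Without KI_CD replicate 1 they were -0.24 for Per2 and -0.26 for Per3 in KI_CD against WT_CD, and -0.08 and 0.18 in KI_MR against KI_CD.

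Nr1d1 and Nr1d2, the repressors of Arntl, had no change that passed, and Nr1d2 varied least within groups of the 9 genes. Nr1d1 had an intensity of 3164, 5026 and 4735 in KI_MR, 3265, 3902 and 4193 in KI_CD, 3069, 3923 and 2947 in WT_MR and 3027, 3605 and 2448 in WT_CD. Its log2 change was 0.36 (SE 0.19, 95% interval -0.07 to 0.79) in KI_MR against WT_MR and 0.33 (SE 0.19, -0.09 to 0.76) in KI_CD against WT_CD. Nr1d2 had 1737, 1735 and 1733 in KI_MR, 1709, 1584 and 1871 in KI_CD, 2113, 1637 and 1357 in WT_MR and 1663, 1771 and 1794 in WT_CD. The 3 KI_MR values of Nr1d2 were almost the same, whereas the WT_MR values spread from the highest to the lowest of the 12 arrays. All 4 changes of Nr1d2 lay between -0.06 and 0.05, and their 95% intervals within -0.34 to 0.34. Its change was 0.09 in WT_MR against WT_CD and -0.10 in KI_MR against WT_MR without WT_MR replicate 3.

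Dbp, a transcription factor gene that the Arntl pair drives directly, was even in WT_CD and uneven elsewhere. Its intensity was 993, 975 and 770 in KI_MR, 813, 1024 and 1216 in KI_CD, 1161, 1031 and 536 in WT_MR and 1187, 1192 and 1149 in WT_CD. WT_MR replicate 3 had the lowest value of all 12 arrays, and the 3 WT_CD arrays agreed within an SD of 0.03 (log2). The log2 change was -0.45 (SE 0.25, limma adjusted p = 0.737) in WT_MR against WT_CD, and -0.10 without WT_MR replicate 3. In KI_MR against KI_CD it was -0.15 (SE 0.25), and in KI_CD against WT_CD -0.23 (SE 0.25). Without KI_CD replicate 1 these were -0.30 and -0.08.

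**Figure D2:**
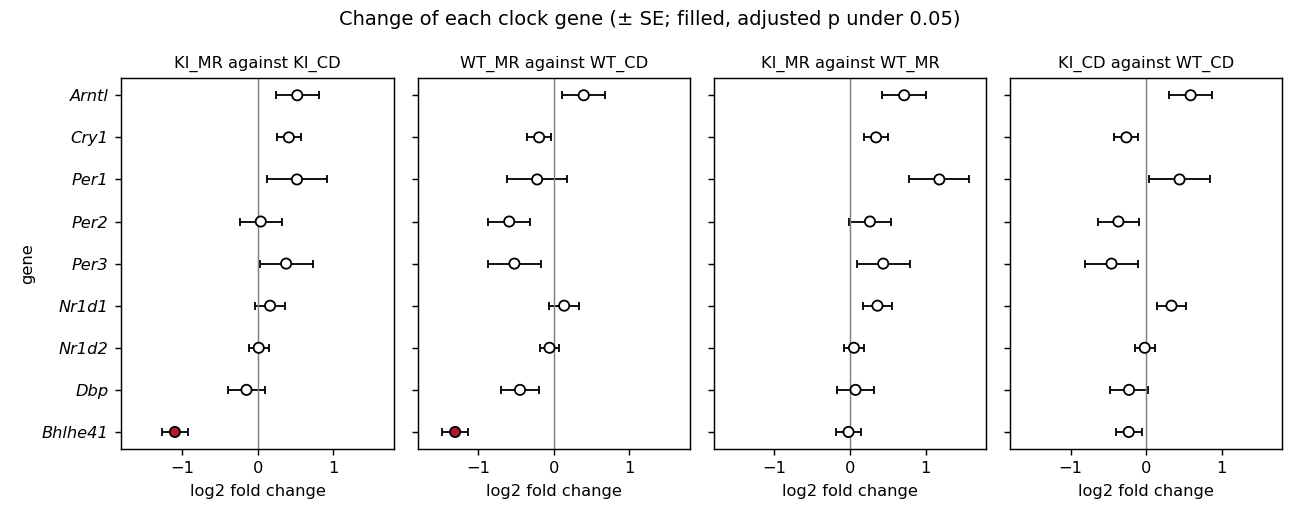
Log2 fold change ± SE of 9 clock genes (rows) in 4 comparisons (panels), from 1 limma fit with n = 3 arrays a group; filled points have an adjusted p under 0.05. Bhlhe41 is filled in both diet comparisons, at -1.09 in KI_MR against KI_CD and -1.30 in WT_MR against WT_CD, and no other point is filled.

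Whether diet acted differently on the clock genes in the 2 genotypes was tested by the interaction of diet with genotype. By limma 0 of 9 clock genes passed, and 0% of all genes did, with 824 genes at an unadjusted p under 0.05. Cry1 was the 1 clock gene among those 824 (0.61, SE 0.23, unadjusted p = 0.0210, limma adjusted p = 1). The interaction value was above 0 for all 9 clock genes, with a median of 0.30, while it was above 0 for 46% of all genes (9162). It was above 0 for 6 of 9 without WT_MR replicate 3, and for 5 of 9, with a median of 0.02, without both that array and KI_CD replicate 1. With array weights it was above 0 for 4 of 9, with a median of -0.01. The diet responses of Bhlhe41 are bounds in both genotypes, so their difference was not measured. Its fitted value (0.21) is still counted among the 9 and in the medians above.

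A shift of clock phase between groups can move Arntl and the E-box genes in opposite directions, but the directions depend on the time of day. That time is not known here, so the signs below are a description, and a shift of phase was not tested. In the group means Arntl and most of the E-box genes had opposite signs in 2 of the 4 comparisons, and the same sign in the other 2. In WT_MR against WT_CD, Arntl was above 0 and 6 of the 7 genes Per1, Per2, Per3, Nr1d1, Nr1d2, Dbp and Bhlhe41 were below 0, with Cry1 below 0 as well. In KI_CD against WT_CD, Arntl was above 0 and 5 of the 7 were below, as was Cry1 (-0.26, and -0.17 without KI_CD replicate 1). In KI_MR against KI_CD, Arntl and Cry1 were above 0 but so were 5 of the 7, and in KI_MR against WT_MR both were above 0 with 6 of the 7. Without WT_MR replicate 3 the latter changed. Arntl was then at 1.04, but Per2 went from 0.26 to -0.09 and Per3 from 0.44 to -0.03. Nr1d2 went from 0.05 to -0.10 and Dbp from 0.07 to -0.27. Per1 (0.83), Nr1d1 (0.28) and Cry1 (0.30) stayed above 0. In WT_MR against WT_CD without that array, Arntl was at 0.07 and 5 of 9 clock genes were below 0. These tallies count Bhlhe41, whose levels lay below the floor in both MR groups. Over the 9 clock genes the median change was -0.22 in WT_MR against WT_CD, -0.23 in KI_CD against WT_CD, 0.17 in KI_MR against KI_CD and 0.34 in KI_MR against WT_MR. The medians over all genes lay between -0.04 and 0.00. Without WT_MR replicate 3 the medians involving WT_MR were -0.05 against WT_CD and -0.03 for KI_MR against WT_MR, so the values for these pairs rested on that array. Without KI_CD replicate 1 the median was -0.04 in KI_CD against WT_CD and 0.06 in KI_MR against KI_CD. These comparisons share groups and are not independent of each other.

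Taken per array, the balance of the arms was expressed as the mean log2 level of Arntl and Cry1 minus the mean of the other 7 genes. Npas2 had been planned beside Arntl and Cry1 and is missing. Cry1 is itself a repressor and an E-box gene, so the balance does not set activators alone against repressors. The balance was -2.11 ± 0.41 in KI_MR, -2.60 ± 0.28 in KI_CD, -2.31 ± 0.72 in WT_MR and -2.84 ± 0.08 in WT_CD (SD, n = 3 each). The 3 WT_CD arrays lay close together at -2.93 to -2.78, while the WT_MR arrays ran from -2.93 to -1.51, across the whole range of the series. The highest arrays were WT_MR replicate 3 (-1.51), KI_MR replicate 2 (-1.82), KI_MR replicate 3 (-1.94) and KI_CD replicate 1 (-2.30). With Arntl alone as the activator, a choice made after seeing the data, WT_CD was at -3.13 ± 0.05 and the highest array was again WT_MR replicate 3, at -1.14. With Bhlhe41 taken out of the 7 genes, the means were -2.77 in KI_MR, -3.08 in KI_CD, -2.91 in WT_MR and -3.29 in WT_CD, in the same order. The place of WT_MR rested on replicate 3: without it the WT_MR mean was -2.70, below KI_CD, and -3.34 with Bhlhe41 taken out, below WT_CD as well.

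**Figure D3:**
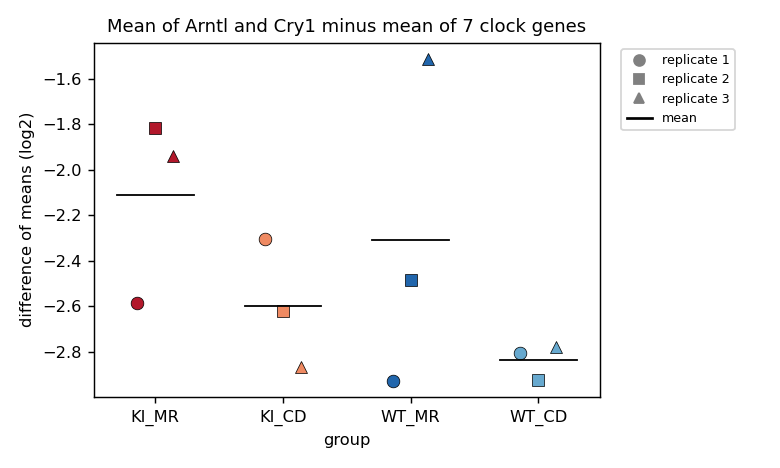
Mean log2 level of Arntl and Cry1 minus the mean log2 level of Per1, Per2, Per3, Nr1d1, Nr1d2, Dbp and Bhlhe41 on each array, by group, with symbols for the replicate number and a line at the group mean. The WT_CD arrays sit together near -2.84, and the WT_MR arrays spread from -2.93 to -1.51.

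Across the 12 arrays, Arntl ran opposite to Dbp and Per2. With Dbp, Pearson's r was -0.70 (permutation p = 0.00912, adjusted p = 0.0689 over 8 relations) and Spearman's rho was -0.80 (permutation p = 0.00288, adjusted p = 0.0189). With Per2, r was -0.66 (permutation p = 0.0172, adjusted p = 0.0689) and rho was -0.77 (permutation p = 0.00472, adjusted p = 0.0189). By rank 2 of the 8 relations thus passed the adjusted threshold of 0.05. By Pearson's r 0 did, with 3 at an unadjusted permutation p under 0.05. The permutations moved all 12 arrays freely across the groups, so these p-values also take in differences between the group means. Without KI_MR replicates 3 and 2, the arrays farthest from the median of Arntl, r was -0.83 for Dbp and -0.84 for Per2, and rho was -0.71 and -0.81, but by rank 0 then passed (permutation, adjusted p = 0.0611 for Dbp and 0.0547 for Per2). The rank call of Per2 was also lost without WT_MR replicate 1 (permutation, adjusted p = 0.0656), WT_CD replicate 1 (0.0565) or WT_CD replicate 3 (0.0737), and that of Dbp was kept when any 1 array was left out. Without WT_MR replicate 3, r was -0.79 for Dbp and -0.70 for Per2.

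The relations with Dbp and Per2 remained when differences between the group means were removed. After each group's mean was subtracted, r with Arntl was -0.90 for Per2, -0.84 for Per3, -0.81 for Dbp and -0.71 for Nr1d2 over the 12 arrays. Arntl and each of these genes had their widest spread in WT_MR. The SD in WT_MR was 0.60 for Arntl, 0.67 for Per2 and 0.60 for Dbp, against 0.06, 0.16 and 0.03 in WT_CD. These r values were not computed without WT_MR replicate 3, so their dependence on that array was not tested. Over the undivided arrays Per3 had an r of -0.48 (permutation p = 0.107, adjusted p = 0.171) and Nr1d2 an r of -0.44 (permutation p = 0.157, adjusted p = 0.210). Nr1d1 was the gene that went with Arntl, at r = 0.64 (permutation p = 0.0265, adjusted p = 0.0707) and rho = 0.52 (permutation p = 0.0899, adjusted p = 0.130). That relation rested on KI_MR replicates 2 and 3, since r was 0.22 without them. Bhlhe41 had an r of -0.54 (permutation p = 0.0738, adjusted p = 0.148), and -0.33 once the group means were subtracted. Per1 (r = 0.26) and Cry1 (r = 0.21) had no relation that passed, and both turned negative without KI_MR replicates 2 and 3, at -0.28 and -0.76. Among the other genes, r between Per2 and Dbp was 0.93, between Per2 and Per3 0.86 and between Per3 and Dbp 0.82, values that share the same 12 arrays.

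**Figure D4:**
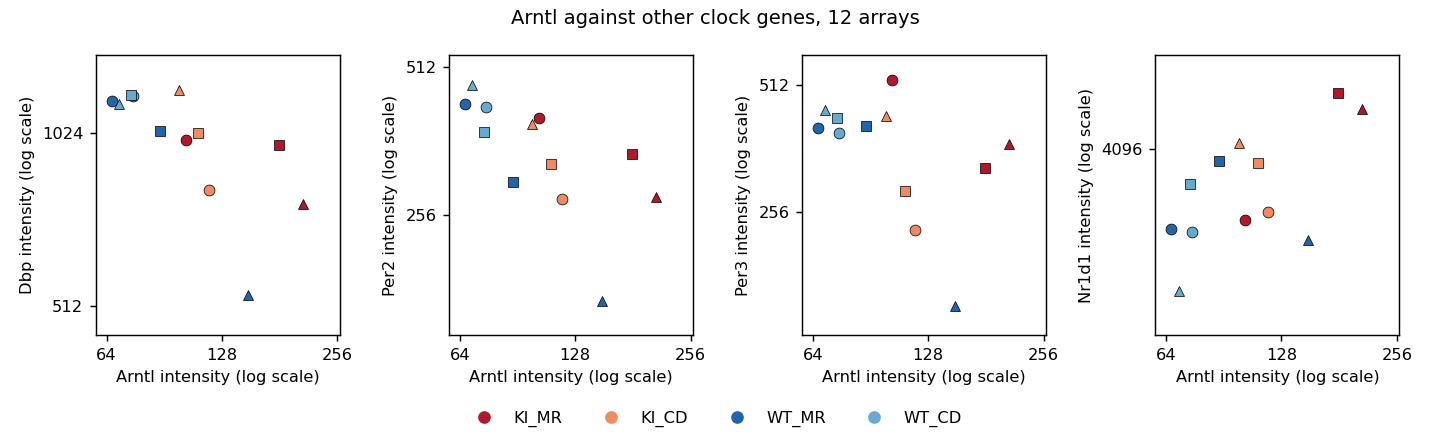
Intensity of Dbp, Per2, Per3 and Nr1d1 (panels, log axes, array units) against the intensity of Arntl on 12 arrays, coloured by group with the symbol of the replicate (circle 1, square 2, triangle 3). Dbp and Per2 fall as Arntl rises (r = -0.70 and -0.66), and WT_MR replicate 3 is the lowest point for Dbp, Per2 and Per3.

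Single arrays stood apart across many clock genes. WT_MR replicate 3 had the lowest level of the 12 arrays for Per1, Per2, Per3, Nr1d2 and Dbp, and the third highest for Arntl. The same array had the lowest Tef, Ciart and Usp2, known outputs of the clock, and the highest Nfil3, a repressor of D-box genes. These 4 genes were picked after their values were seen. Ciart, a repressor of the Arntl pair, stood at 152 on that array, against 1165 and 855 on the other WT_MR arrays. Usp2, which encodes a deubiquitinase, stood at 173, against 957 and 859. KI_CD replicate 1 had a like set of low values, with Ciart at 293 and Usp2 at 190, against 781 and 981 for Ciart and 697 and 799 for Usp2 on the other KI_CD arrays. WT_MR replicate 1 lay the other way, with the lowest Arntl (66) and the highest Nr1d2 (2113) of the 12 arrays. What set these arrays apart was not tested.

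**Figure D5:**
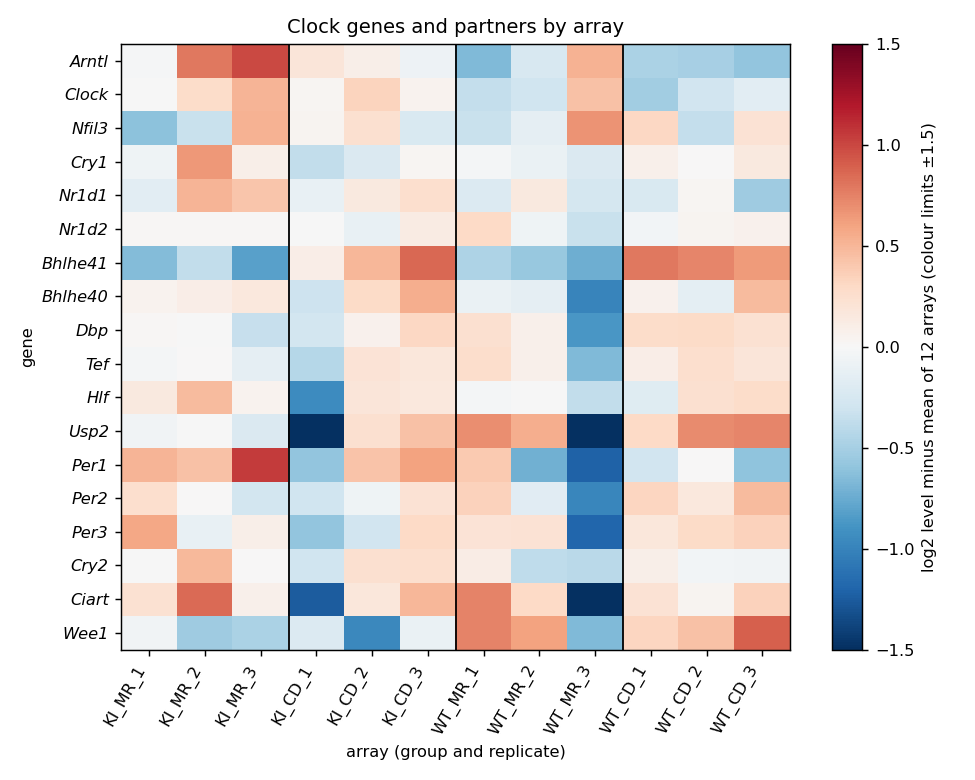
Log2 level of 18 clock genes and partners (rows) on 12 arrays (columns, black lines between groups) minus each gene's mean over the arrays, with colours limited to ±1.5. WT_MR replicate 3 and KI_CD replicate 1 are blue for Usp2, Per1, Per3 and Ciart, and Bhlhe41 is blue on all 6 MR arrays.

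Genes most like the 2 arms over the 12 arrays were named as a description, out of 14217 genes above the lower quartile and without predicted loci. For Arntl they were Clpx (r = 0.91), Zfp608 (0.91), Sat2 (0.90), Tex10 (0.89) and Vps37b (0.89), and Clock stood seventh (0.89). For Dbp they were Tef (0.93), Azin1 (0.91), Serinc4 (0.88), Usp2 (0.88) and Cdk18 (0.88). Tef is a relative of Dbp that binds the same D-box.

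Few genes of the wider clock passed the test. Of 12 measured partners of the loop (Clock, Cry2, Rora, Nfil3, Tef, Hlf, Ciart, Bhlhe40, Csnk1d, Csnk1e, Btrc and Fbxw11), 0 passed in any of the 4 comparisons or in the interaction. Bhlhe40, the paralog of Bhlhe41, had an intensity of 838, 866 and 901 in KI_MR, 648, 981 and 1175 in KI_CD, 753, 734 and 406 in WT_MR and 843, 725 and 1116 in WT_CD. Its groups overlapped in both diet comparisons, and its change was -0.53 in WT_MR against WT_CD (-0.24 without WT_MR replicate 3), so it did not show the separation seen for Bhlhe41. In KI_MR against WT_MR 11 of the 12 partners were above 0, with a median of 0.14, against 37.3% of all genes. Clock was at 0.33 in that comparison (limma adjusted p = 0.477), and it passed with array weights (0.56, limma adjusted p = 0.0138). Those weights did not converge and put 16.7 on WT_MR replicate 1. Under the alternatives up to 4612 of all genes passed there, against 94 as reported.

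Of 11 measured liver genes under clock control, 1 passed, in 1 comparison. Cyp7a1, which catalyses the limiting step from cholesterol to bile acids and is rhythmic, had an intensity of 1195, 653 and 1745 in KI_MR against 5963, 4297 and 3285 in WT_MR. It fell by 1.98 on the log2 scale (SE 0.32, limma adjusted p = 0.0314), without overlap. The call was lost without KI_MR replicate 1 (limma adjusted p = 0.0639) or 3 (0.0519), WT_MR replicate 1 (0.116) or 2 (0.122), or WT_CD replicate 1 (0.0538) or 2 (0.0597). In WT_MR against WT_CD, with 1826, 2077 and 2219 in WT_CD, the change of Cyp7a1 was 1.11 (SE 0.32, limma adjusted p = 0.256). In KI_MR against KI_CD, with 3084, 1876 and 2566 in KI_CD, it was -1.15 (SE 0.32, limma adjusted p = 0.272). Wee1, a cell-cycle kinase gene with E-boxes, had a change of -0.97 in KI_CD against WT_CD that did not pass (unadjusted p = 0.0166), and it ran opposite to Arntl over the arrays (r = -0.81). In KI_MR against WT_MR the change of Wee1 was -0.58 and did not pass (limma adjusted p = 0.458). Without WT_MR replicate 3 it was -1.03 (limma adjusted p = 0.0752). Wee1 passed there with the array weights (-1.02, limma adjusted p = 0.0112), but those weights did not converge.

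Food, glucocorticoids and temperature also reset the liver clock, and genes that report them were set beside it. Of 8 glucocorticoid-responsive genes 0 passed in any comparison, though all 8 were above 0 in KI_MR against WT_MR (median 0.49), where 37.3% of all genes were, and 7 of 8 in KI_CD against WT_CD (median 0.25), where 43% were. Without WT_MR replicate 3 it was 7 of 8 in KI_MR against WT_MR (median 0.44), and with the array weights 5 of 8 (median 0.09). Without KI_CD replicate 1 the median in KI_CD against WT_CD was 0.48. Fkbp5, a chaperone gene induced by glucocorticoids, had 494, 594 and 556 in KI_MR, 368, 470 and 461 in KI_CD, 501, 421 and 298 in WT_MR and 166, 299 and 386 in WT_CD. Of 7 fasting-induced genes 0 passed, with medians from -0.17 to 0.07. Among them Pdk4 had 316, 598 and 339 in WT_MR against 98, 110 and 114 in WT_CD, without overlap, as 11.5% of all genes there. Of 5 temperature-responsive genes, the cold-induced RNA-binding protein genes Rbm3 and Cirbp passed. The heat shock genes Hspa1a and Hsph1 did not pass, but lay lower in the knock-in without overlap on both diets. Hspa1a had 105, 125 and 125 in KI_MR, 121, 127 and 108 in KI_CD, 164, 161 and 138 in WT_MR and 152, 163 and 140 in WT_CD. Of all genes 16.3% did not overlap in KI_MR against WT_MR, and 19% in KI_CD against WT_CD. Rbm3 had 3080, 2752 and 2958 in KI_MR, 2351, 2159 and 2330 in KI_CD, 1560, 1334 and 1436 in WT_MR and 1462, 1432 and 1299 in WT_CD, so every knock-in array lay above every wild-type array. It rose by 1.02 in KI_MR against WT_MR (SE 0.08, limma adjusted p = 0.000957) and by 0.71 in KI_CD against WT_CD (SE 0.08, limma adjusted p = 0.00786). Cirbp had 446, 712 and 575 in KI_MR against 219, 263 and 315 in WT_MR, and rose by 1.11 (SE 0.17, limma adjusted p = 0.0271). That call was lost without KI_MR replicate 3 (limma adjusted p = 0.126), WT_MR replicate 1 (0.0981) or 2 (0.12), or WT_CD replicate 2 (0.0539), and the Rbm3 call in KI_CD against WT_CD without WT_CD replicate 1 (0.0534). Neither was called with diet, and whether food, glucocorticoids or temperature had a part in the levels of the clock genes was not tested.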

How the data were processed

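The deposited values are linear array intensities in whole numbers, from 10 to 20042. The authors' background correction and scaling are not given in the sources used here. Intensities were used as deposited, and their log2 was taken. Of 35512 probe sets, 21789 carried 1 gene symbol in the platform annotation, 1621 several and 12102 none. The brightest single-symbol probe set stood for a gene, and 19856 of 19938 genes matched the reference table by Entrez identifier. Group means were fitted in limma 3.58.1 (R 4.3.3) with 8 residual and 3.14 prior degrees of freedom, two-sided. P-values were adjusted by Benjamini-Hochberg over the genes of a contrast, at a threshold of 0.05. Correlations were tested with 100000 permutations (numpy 2.4.6, scipy 1.17.1) over 8 relations, since Npas2 was not analysed. The fit was tested on simulated data.

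The members and lists were chosen with earlier results of these data known. The text names all members, of other lists each gene past the threshold and some that did not pass, and the 5 genes most like Arntl and Dbp. Other genes are named as chosen after their values were seen. Alternatives changed the normalization, the filter on dim genes, the choice of probe sets, the prior, the array weights, the replicate block, the arrays fitted and each array in turn. Leaving out WT_MR replicate 3 and KI_CD replicate 1 together, and gene-by-gene weights, were added after seeing the data.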

Additional observations from a re-analysis of the deposited data

How the results depend on the processing

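Of 1056 fold changes recomputed under the alternatives for the clock genes, 980 kept their direction and their side of the threshold, 14 lost it, 2 gained it and 0 called changes turned round, while 60 values that had not passed changed sign. Part of this tally was fixed in advance. Averaging probe sets cannot move a gene with 1 probe set. Leaving out an array outside a comparison, or changing the prior, leaves its fold change the same. Apart from Bhlhe41 no clock gene had passed to begin with. The tally is therefore not a measure of stability. In KI_MR against KI_CD the count of clock genes past the threshold was 1, and it was 0 under median centring (Bhlhe41 adjusted p = 0.0632), without the dimmest 50% of genes, with a replicate block (0.0706) and in a fit of the 6 compared arrays alone (0.349). It ranged from 0 to 1 when each array was left out. In WT_MR against WT_CD the count was 1, 0 without the dimmest 50% of genes, and 0 to 1 when each array was left out. The 50% filter removes Bhlhe41 by construction, and for the other settings the cause was not tested. Bhlhe41 passed in 10 of 23 alternatives in the knock-in (changes -1.29 to -0.91, adjusted p 0.00391 to 0.349) and in 22 of 23 in the wild type (-1.37 to -1.19, 0.000177 to 0.0600). In KI_MR against WT_MR the count was 0, and 1 (Arntl) with array weights (1.13, adjusted p = 0.00461) and with gene-by-gene weights (1.02, 0.0311). The first weights did not converge and put a weight of 16.7 on WT_MR replicate 1. Of the correlations with Arntl, 0 passed by Pearson's r, 3 did after quantile normalization, 5 without the 2 arrays farthest from the median of Arntl, and 0 to 3 when each array was left out. By rank 2 passed, 2 after quantile normalization, 0 without those 2 arrays, and 1 to 3 when each array was left out. Counts over all genes ranged from 0 to 168 in KI_CD against WT_CD (16 as reported), 0 to 130 in KI_MR against KI_CD (35), 17 to 2204 in WT_MR against WT_CD (65), 3 to 4612 in KI_MR against WT_MR (94) and 0 to 3 in the interaction (0). Replicate numbers are shared between groups in the labels, and the deviations of same-numbered arrays correlated at -0.06 to 0.24. In KI_MR against KI_CD and in KI_MR against WT_MR, each array matched best the array of its own number. This held only for replicate 1 in KI_CD against WT_CD and only for replicate 3 in WT_MR against WT_CD. Numbers were not taken to pair samples in the main fit, and whether they mark a shared batch was not tested. With the replicate block the knock-in call of Bhlhe41 was lost, and no other clock gene call changed. The MR levels of Bhlhe41 lay below the floor, so its fitted changes are not exact sizes.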
